A study of Homo sapiens with 6 samples.

Results

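Of the 21776 genes counted in SCC25 cells, 9 are described here: the complement components C3, CFB, C1R and C1S, the soluble complement inhibitors CFI and SERPING1, and the membrane complement inhibitors CD46, CD55 and CD59. They were chosen by name from the gene column of the count table, and all 9 were found there. SCC25 is an established cell line derived from an oral squamous cell carcinoma. The labels name SCC25 for all libraries, whereas a legend in the study names SCC9, another oral carcinoma line, for the transcriptome, and the labels are followed here. RNA sequencing compared wild-type SCC25 cells kept for 12 h under hypoxia (1% O2, 5% CO2 and balanced N2) with the same cells kept for 12 h under normoxia (95% air and 5% CO2). There were 3 libraries per condition, numbered 1 to 3. The hypoxia libraries held 30186813, 36076088 and 32272716 counts in all, and the normoxia libraries held 37278703, 29637189 and 29981208. The labels do not say whether the replicates came from separate cultures, so the p-values measure only the spread between these libraries, which may be technical, and a single cell line stands for the tumour type.

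Complement is a cascade of plasma and cell-surface proteins that tags cells for removal and can lyse them. The classical pathway is started by the C1 complex, in which the protease C1r activates the protease C1s, and C1s cleaves C4 and C2. The alternative pathway amplifies the response through factor B, and both pathways converge on the cleavage of C3. Host cells hold the cascade in check with soluble inhibitors and with proteins on their own membrane. Most plasma complement is made in the liver, but epithelial cells and carcinoma cells can also make components, and carcinomas commonly carry the membrane inhibitors.

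The labels were checked against markers of epithelial cells and of the hypoxia response. The epithelial markers cannot tell SCC25 from SCC9, since both are oral carcinoma lines. Of 7 epithelial markers, not all of them particular to squamous cells, EPCAM (mean 183 FPKM over the 6 libraries), SFN (126 FPKM), CDH1 (68.8 FPKM), KRT5 (52.9 FPKM), TP63 (9.28 FPKM) and DSG3 (1.42 FPKM) were present. The keratin gene KRT14 had 1 read in normoxia replicate 2 and none in the other libraries. FPKM is the count of a gene scaled by its length and by the library total, and is the scale used here to compare levels between genes. All 15 genes of a hypoxia response list were higher in the hypoxia libraries. Normoxia replicate 3 stood apart from the other normoxia libraries in several of these. CA9, a carbonic anhydrase induced by hypoxia, was at 67.7 CPM in normoxia replicate 3 against 32.2 and 27.3 CPM in normoxia replicates 1 and 2. CPM is the count of a gene scaled by the library total alone, here after TMM, edgeR's trimmed-mean normalization. NDRG1, another hypoxia-induced gene, was at 409 CPM there against 163 and 140 CPM, and of the complement genes C3, CFB, C1R, CD46 and CD59 were also highest of the normoxia libraries in replicate 3. CD59 was so although it fell under hypoxia. Values without that library are given beside C3, CFB and C1R, and its part in the results was not tested.

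The genes were tested for a difference between hypoxia and normoxia by edgeR's quasi-likelihood test with Benjamini-Hochberg adjustment over the 14255 genes that passed its filter on low counts, and a call is an adjusted p-value under 0.05. Of the 9 genes, 8 passed the filter. C3, CFB, C1R, C1S, CFI and CD46 rose under hypoxia, CD59 fell and CD55 was not called, while SERPING1 was below the filter. Calls were frequent in this comparison, since 77.8% of all genes tested were called, 39.2% as higher and 38.5% as lower. The share of the complement genes called in either direction, 7 of 8, was near that background, so the sizes and directions below carry the description. Likewise 6 of the 8 lay higher without overlap between the conditions and 1 lay lower, against 80.5% of all genes tested without overlap, 40.6% higher and 39.9% lower. The median log2-fold change was 1.02 over the 8 complement genes and 0.02 over all genes tested. The filter asks for at least 0.318 CPM in 3 libraries, and CFI reached that level in all hypoxia libraries but in 2 of the 3 normoxia libraries. Without it, 5 of the 7 remaining genes were called higher and 1 lower, and their median was 1.00. In bulk RNA, a change in the number of cells expressing a gene and a change in the RNA per cell cannot be told apart.

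C3, the central component whose cleavage products opsonize cells, was by far the most abundant of the 9 genes. Its level was 3003, 3199 and 3107 CPM in hypoxia replicates 1 to 3 and 1376, 1472 and 1684 CPM in normoxia replicates 1 to 3. All hypoxia libraries lay above all normoxia libraries. The mean rose from 1510 ± 158 CPM (SD, n = 3) to 3103 ± 98.2 CPM (SD, n = 3), a fold change of 2.05 (log2-fold change 1.04, SE 0.07, 95% confidence interval 0.90 to 1.18, edgeR adjusted p = 1.41e-10). Without normoxia replicate 3 the log2-fold change was 1.11. Per length, C3 rose from 284 ± 29.6 to 603 ± 25.4 FPKM (SD, n = 3). By FPKM it ranked 103, 95 and 101 among all genes in the hypoxia libraries and 191, 184 and 156 in the normoxia libraries. C3 reads made up 0.315% ± 0.0133 (SD, n = 3) of all counts under hypoxia and 0.149% ± 0.0155 (SD, n = 3) under normoxia.

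CFB encodes factor B, which binds the C3b fragment and supplies the protease of the alternative pathway convertase. It was at 96.3, 104 and 99.4 CPM in the hypoxia libraries and at 35.8, 34.9 and 51.3 CPM in the normoxia libraries. The conditions did not overlap, and normoxia replicate 3 was the highest normoxia library. The log2-fold change was 1.30 (SE 0.10, 95% confidence interval 1.08 to 1.51, edgeR adjusted p = 3.33e-09), a fold change of 2.45, and it was 1.48 without normoxia replicate 3. Per length, CFB rose from 16.2 ± 3.73 to 40.9 ± 1.95 FPKM (SD, n = 3).

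RefSeq windows of the 250 bases before the annotated start (GRCh38.p14, the build of the reference, not of the deposited files) were searched on both strands for the letters of factors known from hypoxia and from cytokine induction of complement. Such windows were given for CFB, C1R, CFI, CD46, CD55 and CD59, 6 of the 9 genes. The searched letters were ACGTG and GCGTG (cores of the hypoxia-inducible factor site), TTCNNNGAA (STAT factors), GAAA followed after 2 bases of any kind by GAAA (interferon response) and the NF-kB consensus. Of 35116 windows of the same length, 18.5% held ACGTG, 32.2% held GCGTG, 6.57% held the STAT letters, 3.02% held the interferon letters and 9.96% held the NF-kB consensus. The CFB window (chr6:31945845-31946094, plus strand) is shown because it was the window of these genes that held the last 3 together. Its capitals mark, from 5′ to 3′, the interferon letters 140 to 131 bases before the start, read on the opposite strand, the NF-kB consensus at 112 to 103, and the STAT letters at 92 to 84.
CFB: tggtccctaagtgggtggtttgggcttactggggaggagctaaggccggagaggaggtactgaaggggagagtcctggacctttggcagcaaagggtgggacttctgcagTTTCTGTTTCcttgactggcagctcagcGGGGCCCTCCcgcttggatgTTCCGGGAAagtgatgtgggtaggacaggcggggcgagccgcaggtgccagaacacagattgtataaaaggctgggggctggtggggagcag
It held neither of the hypoxia-inducible factor cores. No match was found in the windows of CFI, CD46 and CD55. These matches describe the letters alone, since factor binding was not measured in these libraries.

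C1R and C1S encode the paired proteases of the C1 complex and are neighbours on chromosome 12. C1r activates C1s, which then cleaves C4 and C2. C1R was at 49.9, 54.6 and 54.6 CPM in the hypoxia libraries and at 12.9, 13.5 and 19.7 CPM in the normoxia libraries, with no overlap. Its log2-fold change was 1.79 (SE 0.11, 95% confidence interval 1.55 to 2.04, edgeR adjusted p = 1.82e-10), a fold change of 3.47, and without normoxia replicate 3 it was 1.99. C1S was at 21.4, 24.2 and 23.9 CPM under hypoxia and at 13.4, 10.1 and 13.0 CPM under normoxia. These libraries did not overlap either, and in C1S normoxia replicate 3 lay between the other normoxia libraries. The log2-fold change of C1S was 0.93 (SE 0.11, 95% confidence interval 0.70 to 1.15, edgeR adjusted p = 4.45e-07), a fold change of 1.90.

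The C1R window with a match (chr12:7091894-7092143, minus strand, GRCh38.p14) is shown beside that of CFB because both genes rose and both held the STAT letters. The capitals mark these letters, 86 to 78 bases before the start.
C1R: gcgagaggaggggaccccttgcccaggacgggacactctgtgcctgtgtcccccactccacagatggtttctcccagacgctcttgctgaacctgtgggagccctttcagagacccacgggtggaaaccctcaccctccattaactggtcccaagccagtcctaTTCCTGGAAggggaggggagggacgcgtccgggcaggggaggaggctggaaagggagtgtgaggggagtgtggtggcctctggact
A second annotated start of C1R held no match.

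The 2 C1 proteases did not rise in step. Per length, the ratio of C1S to C1R within a library was 0.383, 0.395 and 0.390 in the hypoxia libraries and 0.923, 0.664 and 0.591 in the normoxia libraries. Every hypoxia library had a lower ratio than every normoxia library. The log2 ratio was −1.36 ± 0.02 (SD, n = 3) under hypoxia and −0.49 ± 0.33 (SD, n = 3) under normoxia, a difference of −0.87 (exact two-sided permutation test, p = 0.1, adjusted p = 0.1 over 6 pairs of genes). The smallest p that this exact test allows with 3 libraries against 3 is 0.1. For this and the other ratios, the share of all gene pairs without overlap was not computed. Among single genes tested, 80.5% did not overlap. In GENCODE v29, exons of C1R share 672 bases with C1RL and exons of C1S share 229 bases with EMG1 on the same strand, and whether reads there were split between the genes is not given in the sources used here. C1RL moved up with C1R, and EMG1 moved the other way from C1S, with mean counts of 1138 under hypoxia and 3322 under normoxia. On the same strand, CFB also shares 2249 of its 4997 exonic bases with AL645922.1, CFI 1562 of 4875 with AC126283.2 and CD59 629 of 10358 with AL049629.2, 3 genes for which no counts were used here.

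**Figure D1:**
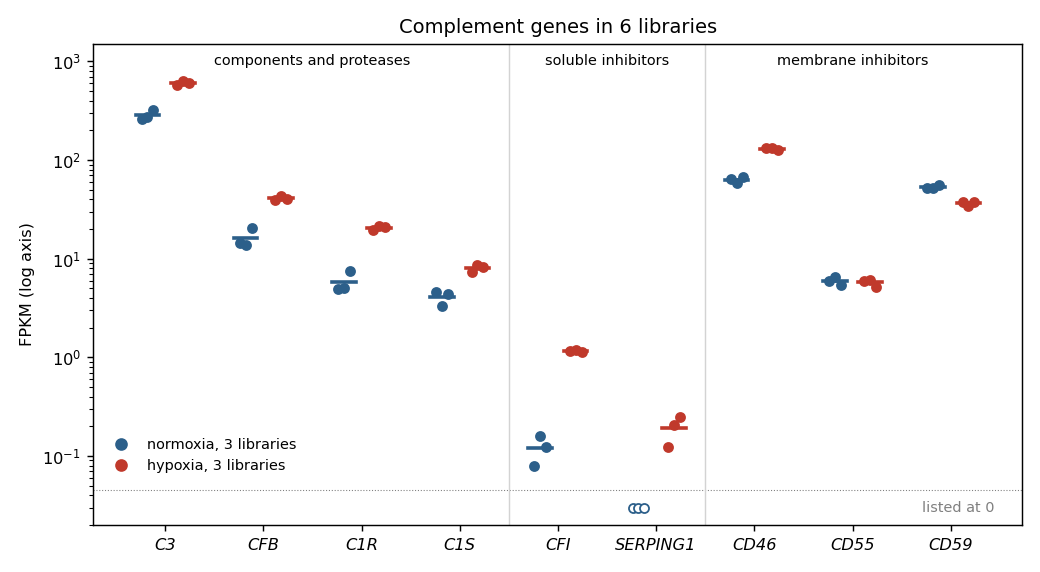
Levels of the 9 complement genes in each library, in FPKM on a log axis, ordered by role; each filled point is 1 library, each bar the mean of a condition, and open points below the dotted line are the normoxia libraries of SERPING1, listed at 0. The hypoxia points lie above the normoxia points in every gene except CD55, where they overlap, and CD59, where they lie below.

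CFI and SERPING1 encode soluble inhibitors. Factor I cleaves C3b and C4b with the help of cofactors, and C1 inhibitor, the product of SERPING1, blocks C1r and C1s. CFI had 96, 118 and 100 counts in the hypoxia libraries and 8, 13 and 10 counts in the normoxia libraries. The log2-fold change was 3.24 (SE 0.32, 95% confidence interval 2.57 to 3.91, edgeR adjusted p = 5.27e-08), a fold change of 9.46. CFI passed the filter on low counts only through its hypoxia libraries, since 2 of its 3 normoxia libraries reached the filter's level. The adjusted p-value takes no account of that. The level of CFI stayed low, rising from 0.120 ± 0.041 to 1.16 ± 0.031 FPKM (SD, n = 3). SERPING1 was close to the detection limit, with 7, 14 and 15 counts under hypoxia and 0 in each normoxia library. A count of 0 allows up to 3 counts per library, on average 0.0956 CPM in the normoxia libraries. The mean SERPING1 level under hypoxia was 3.72 times that floor. The floor covers counting error in normoxia only, and the spread and counting error of the hypoxia counts are not included, so this is not a strict lower bound.

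The soluble inhibitors together reached 1.29, 1.40 and 1.38 FPKM in the hypoxia libraries, whereas C3 alone was between 581 and 631 FPKM there. The log2 ratio of CFI to C3 per length rose by 2.24 from normoxia to hypoxia, and the libraries did not overlap (exact two-sided permutation test, p = 0.1, adjusted p = 0.1). Adding 1 to each FPKM turned that difference to −0.14, because CFI was near or under 1 FPKM in every library. CFB also rose relative to C3, by 0.27 on the log2 scale (exact two-sided permutation test, p = 0.1, adjusted p = 0.1). Its ratio to C3 was 0.0677, 0.0684 and 0.0676 under hypoxia and 0.0550, 0.0502 and 0.0644 under normoxia, so that normoxia replicate 3 lay closest to the hypoxia libraries.

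The 3 membrane inhibitors moved apart. CD46, or membrane cofactor protein, assists factor I in cleaving C3b and C4b on the cell surface. It was at 440, 438 and 430 CPM in the hypoxia libraries and at 217, 206 and 229 CPM in the normoxia libraries. The libraries of a condition lay close together and the conditions did not overlap. The log2-fold change was 1.00 (SE 0.05, 95% confidence interval 0.89 to 1.12, edgeR adjusted p = 1.62e-11), a fold change of 2.01. By FPKM, CD46 ranked 409, 395 and 427 among all genes in the hypoxia libraries and 988, 1084 and 924 in the normoxia libraries.

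CD55, or decay-accelerating factor, dissociates the C3 convertases and is held in the membrane by a glycosylphosphatidylinositol (GPI) anchor. It was at 19.6, 19.7 and 17.1 CPM under hypoxia and at 19.8, 22.4 and 18.1 CPM under normoxia, and the conditions overlapped. The log2-fold change was −0.10 (SE 0.10, edgeR adjusted p = 0.373). Its 95% confidence interval ran from −0.30 to 0.11, which leaves room for a modest change in either direction but not for one as large as that of CD46.

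CD59, also GPI-anchored, blocks the last step of the membrane attack complex. It was at 298, 271 and 300.0 CPM in the hypoxia libraries and at 419, 436 and 452 CPM in the normoxia libraries. All hypoxia libraries lay below all normoxia libraries. The log2-fold change was −0.59 (SE 0.05, 95% confidence interval −0.70 to −0.47, edgeR adjusted p = 2.69e-08), so that the hypoxia level was 0.665 times the normoxia level.

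The CD59 window upstream of its first annotated start (chr11:33736480-33736729, minus strand, GRCh38.p14) is shown because it matched the STAT letters before a gene that fell. The capitals mark them, 128 to 120 bases before the start.
CD59: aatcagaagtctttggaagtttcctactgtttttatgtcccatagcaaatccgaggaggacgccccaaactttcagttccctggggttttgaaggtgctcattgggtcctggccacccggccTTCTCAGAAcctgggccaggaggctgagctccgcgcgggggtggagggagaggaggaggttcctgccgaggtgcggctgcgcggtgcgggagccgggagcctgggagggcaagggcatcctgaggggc
A window of another CD59 start held ACGTG on the opposite strand, 75 to 71 bases before that start, the only hypoxia-inducible factor core found in the windows of the 6 genes.

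**Figure D2:**
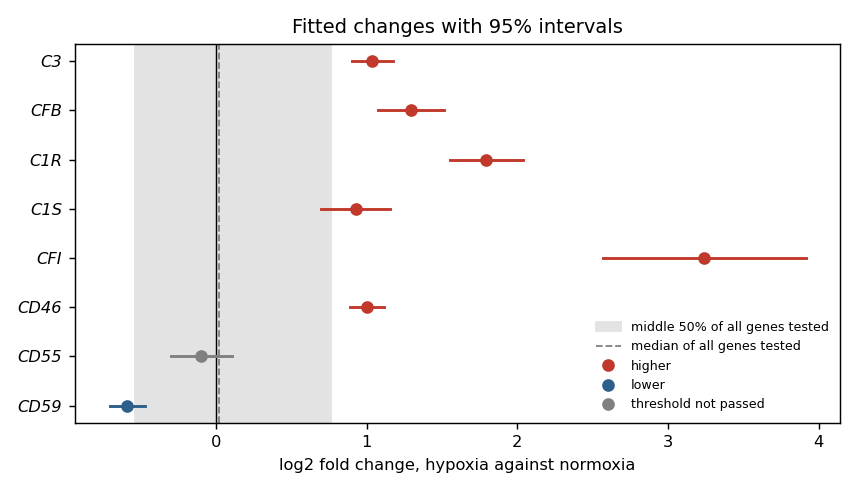
Log2-fold change of hypoxia over normoxia for the 8 tested complement genes, as points with 95% confidence intervals from edgeR; SERPING1 was not tested and is not drawn. The shaded band is the middle 50% of all genes tested and the dashed line their median. CFI, which passed the filter only through its hypoxia libraries, lies farthest to the right at 3.24. CD59 is the only one whose interval lies below 0, and the interval of CD55 spans 0.

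Within each library the make-up of the membrane inhibitors differed between the conditions. The ratio of CD59 to CD46 per length was 0.284, 0.260 and 0.293 in the hypoxia libraries and 0.809, 0.892 and 0.827 in the normoxia libraries. Under normoxia the 2 genes were thus nearly level, and under hypoxia CD46 was clearly ahead. The log2 difference between the conditions was −1.60 for CD59 to CD46, −1.10 for CD55 to CD46 and −0.49 for CD59 to CD55 (exact two-sided permutation test, p = 0.1 and adjusted p = 0.1 for each). None of these ratios overlapped, but lack of overlap was common, at 80.5% of single genes tested. CD55 stayed the least abundant of the membrane inhibitors in every library, with means of 5.79 FPKM under hypoxia and 5.98 FPKM under normoxia. The summed level of the 3 genes was 175, 174 and 170 FPKM under hypoxia and 122, 117 and 127 FPKM under normoxia.

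**Figure D3:**
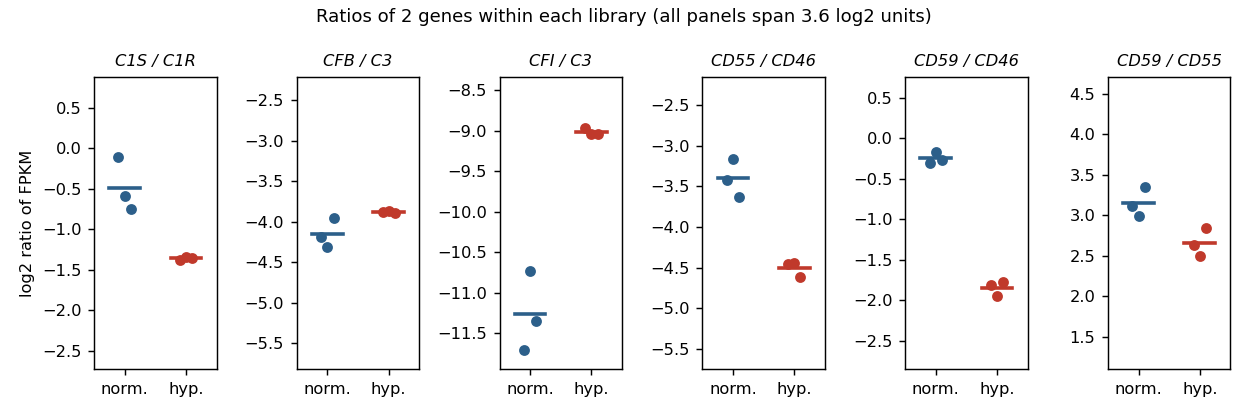
Log2 ratio of FPKM within each library for the 6 pairs of complement genes; each point is 1 library, and bars are the means of the conditions. The panels have different positions but the same span on the vertical axis. No pair overlaps between the conditions. The share of all gene pairs without overlap was not computed, and 80.5% of single genes tested did not overlap. The ratios to C3 are higher under hypoxia, and the other ratios are lower.

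By mean FPKM, the order of the levels ran C3, CD46, CFB, CD59, C1R, C1S, CD55, CFI and SERPING1 under hypoxia, and C3, CD46, CD59, CFB, CD55, C1R, C1S, CFI and SERPING1 under normoxia. CFB thus passed CD59, which fell to 36.4 ± 1.6 FPKM from 53.0 ± 1.86 FPKM (SD, n = 3), and the libraries of CFB and CD59 did not overlap in either condition. Under normoxia, CD55 at 5.98 ± 0.57 FPKM and C1R at 5.79 ± 1.43 FPKM (SD, n = 3) did not differ beyond their spread. C1S was lower there, at 4.09 ± 0.67 FPKM (SD, n = 3), and did not overlap with C1R.

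Among 53 other genes of the complement system, 30 were in the table and 12 passed the filter, of which 7 rose, 3 fell and 2 were not called, with a median log2-fold change of 1.23. The 10 of 12 called were near the 77.8% of all genes. Among all genes tested, 39.2% were called higher and 38.5% lower. Leaving out 5 genes that reached the filter's level in all 3 libraries of 1 condition alone, a choice made after seeing the data, 4 of 7 rose and 2 fell, with a median of 1.03. CFD, the protease factor D that activates factor B, rose by 1.44 on the log2 scale (edgeR adjusted p = 4.23e-07), to 7.02 ± 0.37 CPM from 2.59 ± 0.41 CPM (SD, n = 3). C1RL, a C1r-like protease next to C1R, rose by 1.43 (edgeR adjusted p = 2.48e-10). ITGB2, the beta chain of the leukocyte complement receptors CR3 and CR4, rose by 1.78 (edgeR adjusted p = 8.47e-12) to 110.0 ± 6.70 CPM (SD, n = 3), although its partner chain ITGAM had at most 15 counts in a library. Among the other genes that rose, C5, C4A and C4B were below 1 FPKM on average. They are named after their values were seen, and C4A and C4B are near-identical copies whose reads cannot be safely assigned and which passed the filter only through their hypoxia libraries.

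THBD, thrombomodulin, fell by 1.75 on the log2 scale (edgeR adjusted p = 1.53e-10). C1QBP, a mostly mitochondrial protein that can bind C1q, fell by 1.27 (edgeR adjusted p = 1.95e-11), from 290 ± 21.5 to 120 ± 10.4 CPM (SD, n = 3). CR2, named after its values were seen, was also called lower, but it was below 1 FPKM and passed the filter only through its normoxia libraries. C2, the classical pathway partner that C1s cleaves, had 16, 13 and 8 counts under hypoxia and 7, 4 and 8 counts under normoxia and was not tested. The lectin pathway genes summed to at most 0.106 FPKM in a library and the terminal pathway genes to at most 0.782 FPKM.

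CD55 and CD59 need a GPI anchor, so the genes that make and attach it were counted. Of 33, 32 were tested, of which 9 rose, 13 fell and 10 were not called, with a median log2-fold change of 0.03. Among all genes tested, 39.2% were higher and 38.5% lower. With at least 10 counts in every library, 14 rose and 12 fell. PIGW, an early enzyme that acylates the anchor's inositol, fell by 2.47 on the log2 scale (edgeR adjusted p = 1.06e-11), and MPDU1, needed for the use of dolichol-linked mannose, fell by 1.24. PGAP1, which removes that acyl group, rose by 1.50 (edgeR adjusted p = 6.96e-11) and DPM3, a subunit of the mannose donor synthase, rose by 1.31, while its fellow subunits DPM1 and DPM2 fell by 0.60 and 0.66. The remaining named genes, PGAP3 and PIGV, rose by 0.96 and 0.51. The genes of the transamidase that attaches the anchor summed to between 163 and 171 FPKM in the 6 libraries.

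Other genes of GPI-anchored surface proteins were counted beside CD55 and CD59. Of 16 such genes, 14 were tested, of which 10 rose, 3 fell and 1 was not called, with a median log2-fold change of 0.46, against 39.2% higher and 38.5% lower among all genes tested. EFNA1, an ephrin ligand, rose by 2.69 on the log2 scale, LY6D, a keratinocyte surface antigen, by 2.45, PSCA by 1.78 and BST2, or tetherin, by 1.04. Like CD59, the prion protein gene PRNP (log2-fold change −0.67), the ectonucleotidase gene NT5E (−0.57) and the urokinase receptor gene PLAUR (−0.35) fell.

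Cytokines of the IL-6, IL-1, TNF and interferon families are known to induce complement genes. A list of 33 genes held such cytokines, receptors and kinases, transcription factors and feedback inhibitors. Of these, 29 were tested, of which 8 rose, 13 fell and 8 were not called, with a median log2-fold change of −0.14. Among all genes tested, 39.2% were higher and 38.5% lower. The cytokine IL6 had 176, 192 and 179 counts under hypoxia and 1728, 1387 and 1200 under normoxia, and fell by 3.04 on the log2 scale (edgeR adjusted p = 4.21e-14). The cytokines TNF and IL1B fell by 1.52 and 1.18, and the receptor IL6R fell by 1.09. On the other side, the interferon signalling factors STAT2 and IRF9 rose by 1.36 and 1.12, the oncostatin M receptor OSMR by 1.06 and the feedback inhibitor SOCS3 by 0.87. Of the 8 cytokine genes in the list, 5 were tested, namely IL6, TNF, IL1B, IL1A and LIF, and all 5 fell. A link with the complement genes was not tested.

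**Figure D4:**
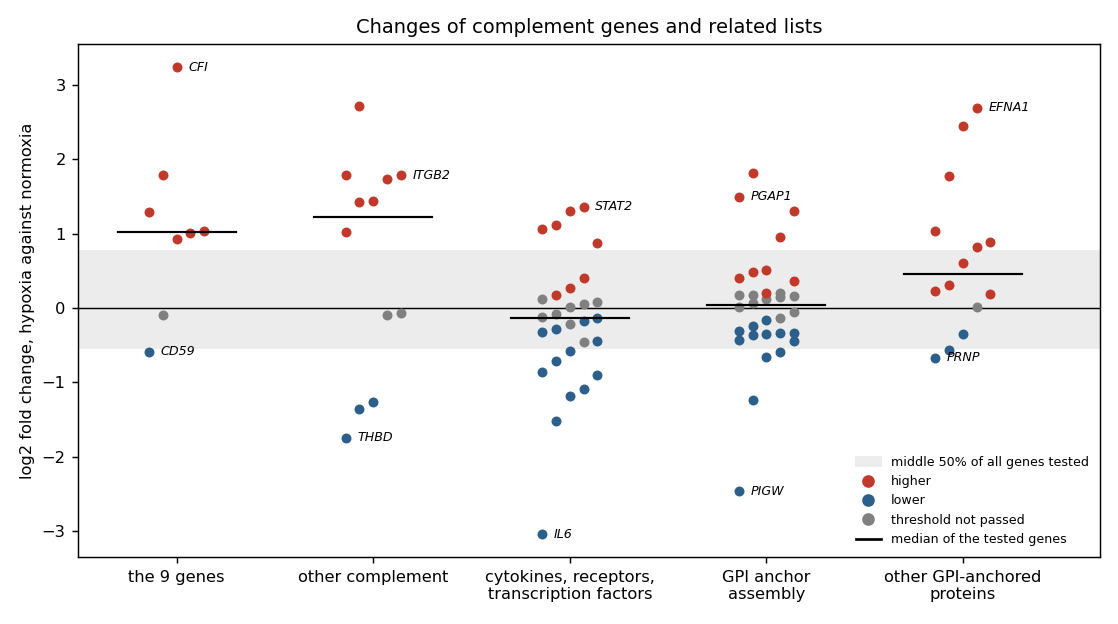
Log2-fold change of hypoxia over normoxia for each tested gene of the complement genes described and of the 4 related lists; each dot is a gene, the shaded band is the middle 50% of all genes tested, and labels name, in each list, the largest rise and fall among called genes whose mean reached 1 FPKM. The cytokine and GPI anchor lists spread to both sides of 0, with IL6 and PIGW lowest.

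Of 20 markers of other cell types, 17 were in the table and 5 passed the filter, of which 3 (COL1A1, CD14 and CDH5) were called higher and 2 were not called. CDH5 and PDGFRB passed the filter only through their hypoxia libraries, since 1 and 2 of their 3 normoxia libraries reached its level. Among all genes tested, 39.2% were called higher and 40.6% were higher without overlap. The hepatocyte markers ALB, APOA1 and APOB had at most 3 counts in any library, and the leukocyte markers PTPRC and CD3E at most 2. The fibroblast marker list summed to 3.96, 3.30 and 2.96 FPKM in the hypoxia libraries and 0.686, 0.516 and 0.959 FPKM in the normoxia libraries, most of it COL1A1. LUM, with 27, 9 and 8 counts under hypoxia and 1, 1 and 2 under normoxia, and PDGFRB, with 24, 19 and 20 counts against 13, 7 and 11, were also higher without overlap, while DCN and COL3A1 had at most 4 counts. The endothelial list summed to 0.317, 0.251 and 0.312 FPKM under hypoxia and 0.0659, 0.0737 and 0.178 FPKM under normoxia. Its PECAM1, with 5, 9 and 10 counts against 2, 0 and 0, and VWF, with 10, 9 and 4 counts against 0 in each, were also higher without overlap. The leukocyte list summed to between 18.7 and 23.5 FPKM, most of it CD68, which was not called, and CD14 rose by 2.45 on the log2 scale with at most 203 counts. The part of these markers in the complement results was not tested.

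For the most abundant gene of each role, the genes with the most similar profile over the 6 libraries were found by the root mean squared difference of centred log2 CPM, with a prior count of 2 that draws low genes together. For C3 they were MDM2 (0.032), ZNF302 (0.032) and PLXNB2 (0.036), against a median of 0.624 over all genes tested. For CD46 they were SREBF2 (0.024), ZSWIM8 (0.027) and TNFRSF10B (0.029), against a median of 0.605. For CFI they were CASC15 (0.068), LOC105377911 (0.073) and LINC02893 (0.139), against a median of 1.55. Their fitted log2-fold changes were 4.24, 3.18 and 4.68, against 3.24 for CFI. The measure is a description over 6 libraries of 2 conditions.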

How the data were processed

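Total RNA of the 6 SCC25 libraries was sequenced from an mRNA library kit. The authors deposited whole-number read counts per gene without normalization, and FPKM of the same genes, computed from those counts, a gene length and the library total. The aligner, annotation, counting tool and use of strand are not given in the sources used here. The submitters' processing notes name the mouse builds GRCm38 and mm10, although the gene symbols are human.

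Hypoxia was compared with normoxia on the counts in R 4.3.3 with edgeR 4.0.16 (glmQLFit and glmQLFTest, TMM, filterByExpr, condition as the only term, Benjamini-Hochberg adjustment at 0.05). Each standard error is the log2-fold change over the root of its F statistic, regardless of sign. FPKM served for ratios within a library, tested by exact permutation and adjusted over 6 pairs, and for levels between genes. Alternatives were DESeq2 1.42.0 (size factors and Wald test), no filter, a minimum of 10 counts per library, a block for the replicate number, omission of single libraries, and limma 3.58.1 on log2(FPKM + 1) and log2(FPKM + 0.1). The tests were run first on simulated data. Depth limits genes with 3 or fewer counts per library, and intervals of counts cover counting error only. Replicates differed beyond sampling noise, and each library counted as 1 replicate.

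Named genes are the 9 complement genes and, from each list, up to 4 called genes in each direction with the largest log2-fold change and a mean of at least 1 FPKM. The genes and lists were chosen with earlier results of these data known. Other columns of the tables hold annotation and were not used as values. The values of a further gene among those counted in the lists are not reported here.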

Additional observations from a re-analysis of the deposited data

How the results depend on the processing

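The calls of the 8 tested complement genes kept their direction and their side of the threshold under every alternative that gave a value. CD55 ranged from −0.18 to −0.02 on the log2 scale (adjusted p from 0.0904 to 0.868), and CFI was 0.95 on log2(FPKM + 1), which understates low genes, and could not be tested with at least 10 counts in every library, since normoxia replicate 1 had 8. With that filter, which left 12665 genes and moved the median log2-fold change by 0.08, GPI anchor genes called higher and lower numbered 14 and 12, and other complement genes called higher numbered 4 (fewer genes tested). The latter also numbered 4 without the genes that reached the filter's level in all libraries of 1 condition alone, a choice made after seeing the data. The ratio of CFI to C3 turned to −0.14 with 1 added to each FPKM. Leaving out each library in turn gave log2-fold changes of 0.96 to 1.11 for C3, 1.19 to 1.48 for CFB, 1.66 to 1.99 for C1R and 0.80 to 0.99 for C1S. They were 2.96 to 3.50 for CFI, 0.96 to 1.03 for CD46 and −0.63 to −0.55 for CD59. For SERPING1, the log2 ratio of the mean hypoxia level to the floor ran from 1.66 to 2.13. Calls among all genes numbered 10669 to 11390.

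No pairing by replicate number was seen. After removal of the condition means, the correlations of same-numbered libraries were 0.02, −0.07 and 0.0012, and those of other pairs ran from −0.07 to 0.07. With 3 libraries per condition, these values cannot exclude a pairing. With the replicate number as a block, 10875 genes were called, and the log2-fold changes were 1.04 for C3, 1.31 for CFB, 1.81 for C1R, 0.93 for C1S, 3.24 for CFI, 1.01 for CD46, −0.09 for CD55 and −0.59 for CD59, with no call changed among these. An exact paired sign-flip test of the 6 ratios gave p = 0.25 for each, the smallest that 3 pairs allow.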
